A study of Mus musculus with 6 samples.

Results

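SR proteins, heterogeneous nuclear ribonucleoproteins (hnRNPs) and the CLK kinases that phosphorylate SR proteins were followed through 24 h of cold exposure in mouse brown fat. The set holds 42 genes, listed by gene symbol, of 21730 genes with a read. The members were chosen with earlier results of these data known. It comprises 12 SR proteins (Srsf1 to Srsf7, Srsf9 to Srsf11, Tra2a and Tra2b), 22 hnRNP genes (Pcbp1, Pcbp2 and Ptbp1 among them), the 4 CLK kinases, and 4 further splicing factors, Luc7l2, Luc7l3, Rbm25 and Rbm39. All 42 had enough reads to be tested.

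The cold group was 3 mice singly housed at 4 °C for 24 h, and the ctrl group was 3 mice kept at 22 to 24 °C. All 6 were wild-type C57BL/6N males of 20 weeks, and whole interscapular brown adipose tissue was taken from each. How ctrl mice were housed is not clear from the labels, so cold and single housing cannot be told apart. Poly(A) RNA was read as long, PCR-free nanopore cDNA on 2 flow cells per mouse, so a read stands for 1 cDNA molecule and can show which annotated transcript it came from. The mice are numbered 4, 11 and 15 (cold) and 2, 9 and 14 (ctrl).

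Depth was 1657985 to 2082203 reads in cold mice and 1829442 to 2238056 in ctrl mice. Levels are given as CPM, the reads of a gene relative to all reads of its library, scaled between libraries. On this scale 3 reads were worth 1.4 to 1.75 CPM. The 42 genes took 0.298% to 0.309% of the reads in cold mice and 0.273% to 0.279% in ctrl mice. Brown adipocyte markers summed to 40438 to 42632 CPM in cold mice and 31759 to 35195 CPM in ctrl mice (10 of 10 detected). The labels' extraction text names another fat depot, eWAT, and white adipocyte markers summed to 124 to 150 CPM in cold mice and 66.0 to 104 CPM in ctrl mice, with Hoxc9 at 0. Skeletal muscle markers varied most within a group, at 272, 1399 and 3441 CPM in cold mice 4, 11 and 15 and 91.4, 399 and 642 CPM in ctrl mice 2, 9 and 14. Endothelial markers were at 321 to 331 CPM in cold mice and 268 to 274 CPM in ctrl mice, and macrophage markers at 93.7 to 128 CPM in cold mice and 62.8 to 92.9 CPM in ctrl mice. Pericyte and smooth muscle markers were at 175 to 194 CPM in cold mice and 222 to 248 CPM in ctrl mice. Fibroblast and preadipocyte markers overlapped, at 212 to 273 CPM in cold mice and 257 to 304 CPM in ctrl mice. Of the 5 tested, 3 were called lower, beside 10% of all genes. Called higher were 2 of 7 endothelial and 2 of 4 white adipocyte markers tested, beside 10% of all genes. Of 10 brown adipocyte markers, 2 were called higher and 2 lower, and 1 of 6 pericyte and smooth muscle markers was called lower. Mitochondrially encoded genes took 27.6% to 29% of reads in cold mice and 29.7% to 32.5% in ctrl mice. Of these, skeletal muscle was tried as a covariate and mitochondrial genes were left out as an alternative; the part of the others was not tested. In bulk tissue, fewer cells of a type and less RNA per cell cannot be told apart.

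SR proteins bind exons through RNA recognition motifs and recruit the splicing machinery through arginine and serine rich (RS) domains. CLK kinases in the nucleus phosphorylate those domains and release SR proteins from nuclear speckles, while hnRNPs often act against SR proteins at the same exons. Many of these genes regulate themselves: a protein in excess steers its own pre-mRNA into a transcript with an early stop codon, a target of nonsense-mediated decay (NMD), or into one that keeps an intron in the nucleus. For this reason each gene was described both by its total and by the share of its reads on coding, NMD and retained-intron transcripts, as GENCODE M21 annotates them.

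The sequences that set the NMD transcripts apart are short. In one kind the stop codon lies in an exon that no coding transcript of the gene uses, often called a poison exon. For the 9 transcripts of this kind with most reads, each line gives the exon from its first base to its stop codon, 5′ to 3′ on the coding strand, with the stop codon in capitals (GENCODE M21, GRCm38).
Srsf3-201, exon 4, chr17:29039454-29039487, plus strand: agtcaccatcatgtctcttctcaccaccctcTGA
Srsf7-203, exon 4, chr17:80205054-80205081, minus strand: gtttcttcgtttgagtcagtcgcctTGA
Srsf9-205, exon 2, chr5:115328347-115328428, plus strand: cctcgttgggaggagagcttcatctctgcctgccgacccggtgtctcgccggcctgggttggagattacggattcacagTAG
Tra2a-202, exon 2, chr6:49252965-49253108, minus strand: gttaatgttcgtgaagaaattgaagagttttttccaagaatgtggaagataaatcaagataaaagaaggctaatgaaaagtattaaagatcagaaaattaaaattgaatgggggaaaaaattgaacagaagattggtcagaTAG
Tra2b-206, exon 2, chr16:22259181-22259261, minus strand: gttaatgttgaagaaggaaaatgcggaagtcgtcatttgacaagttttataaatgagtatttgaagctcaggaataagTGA
Hnrnpl-213, exon 6, chr7:28817335-28817393, plus strand: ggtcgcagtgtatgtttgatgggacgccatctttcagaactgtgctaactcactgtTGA
Rbm25-208, exon 5, chr12:83651646-83651655, plus strand: gttgggaTGA
Rbm39-223, exon 4, chr2:156174126-156174168, minus strand: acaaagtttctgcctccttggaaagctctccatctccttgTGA
Rbm39-225, exon 3, chr2:156178881-156178952, minus strand: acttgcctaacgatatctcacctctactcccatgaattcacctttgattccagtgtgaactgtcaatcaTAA

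These exons were 456 nt long in Srsf3, 460 nt in Srsf7, 358 nt in Srsf9, 306 nt in Tra2a and 276 nt in Tra2b, against 70 nt in Hnrnpl, 105 nt in Rbm25, 72 nt in Rbm39-223 and 73 nt in Rbm39-225. The exons of the paralogs Tra2a and Tra2b sit at the same place in the transcript and open with the same 9 bases. From the stop codon to the last exon junction the spliced distance was 548 nt in Srsf3-201, 699 nt in Srsf7-203, 964 nt in Tra2a-202 and 1015 nt in Tra2b-206.

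The CLK genes share one exon that recurs in the results, exon 4. It lies between introns 3 and 4, both kept in retained-intron transcripts of these genes. Its length was 91 nt in Clk1, 85 nt in Clk2, 97 nt in Clk3 and 91 nt in Clk4, none a multiple of 3, so skipping it shifts the reading frame. The coding exon is printed in lower case for each gene (GENCODE M21, GRCm38, coding strand).
Clk1, chr1:58420121-58420211, minus strand: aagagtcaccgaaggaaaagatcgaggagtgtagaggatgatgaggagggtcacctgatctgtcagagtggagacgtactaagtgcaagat
Clk2, chr3:89169618-89169702, plus strand: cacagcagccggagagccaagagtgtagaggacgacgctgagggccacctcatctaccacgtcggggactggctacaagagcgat
Clk3, chr9:57758627-57758723, minus strand: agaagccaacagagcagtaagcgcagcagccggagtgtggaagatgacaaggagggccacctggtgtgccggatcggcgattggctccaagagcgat
Clk4, chr11:51273078-51273168, plus strand: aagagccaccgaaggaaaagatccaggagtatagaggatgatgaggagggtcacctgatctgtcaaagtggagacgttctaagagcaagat

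Clk1 and Clk4 matched at 85 of the 91 bases. The 5′ splice site that follows is shown next for the 4 genes and for intron 5 of Srsf5, the retained intron with most reads in the set, as the last 10 exon and first 20 intron bases with the GT of the intron in capitals.
Clk1 intron 4, chr1:58420101-58420130, minus strand: agtgcaagatGTatagaatatttttcaaca
Clk2 intron 4, chr3:89169693-89169722, plus strand: caagagcgatGTacaagccaaatcgtaaca
Clk3 intron 4, chr9:57758607-57758636, minus strand: caagagcgatGTacagccacctttcgtaaa
Clk4 intron 4, chr11:51273159-51273188, plus strand: agagcaagatGTatagaatatttttcaaca
Srsf5 intron 5, chr12:80947856-80947885, plus strand: cagctggcagGTttgttgaaatacagtttt

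At this site Clk1 and Clk4 were identical at 29 of 30 bases, and Clk2 and Clk3 at 19. At the 5′ splice site of intron 3, Clk1 and Clk4 shared 17 of 30 bases.

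Gene totals moved little in the cold. Of the 42 genes, 2 rose, both of the hnRNP A/B family (Hnrnpa1 and Hnrnpa2b1), and 3 fell (Hnrnpul2, Luc7l2 and Rbm39), by edgeR's quasi-likelihood test at an adjusted p of 0.05. That is 11.9% of the set, beside 20.0% of all 8684 genes tested, of which 10% were higher and 10% lower. Median log2 fold change, cold over ctrl, was -0.04 over the set and 0.00 over all genes, and the median size of change was 0.17 over the set and 0.26 over all genes. In 12 of the 42 genes (28.6%) the CPM of the 2 groups did not overlap, 6 higher and 6 lower in the cold, beside 35.1% of all genes. A change of 1.5 times was recovered in 30% of the genes given one in simulated counts, and a change of 2 times in 56%. Changes of this size can thus pass unseen. In the simulation 50 genes drawn from all tested were changed at each fold, a smaller part than was called here. Recovery in the real counts may therefore differ.

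**Figure D1:**
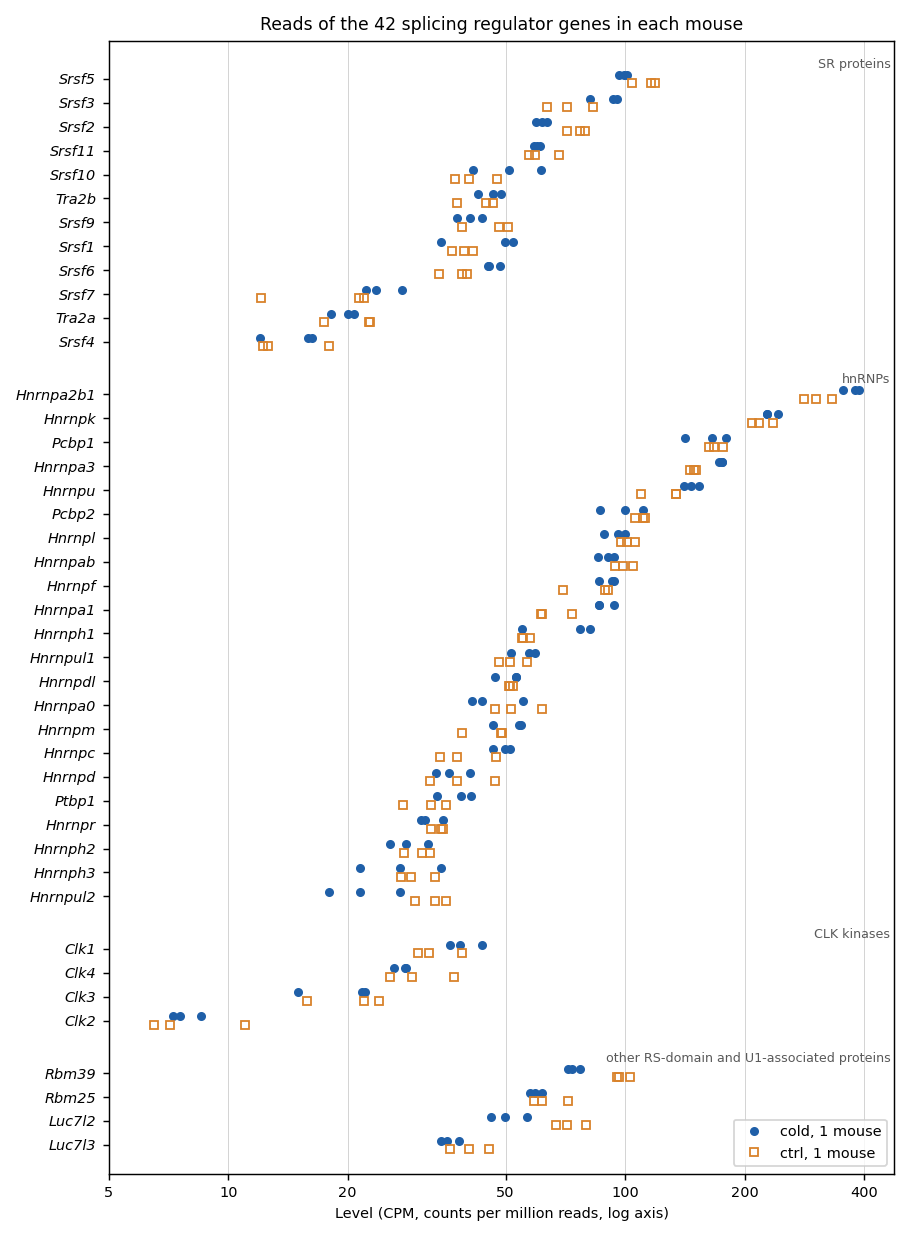
Level of each of the 42 genes in each mouse, in CPM on a log axis, grouped by role and ordered by mean level; filled circles are cold mice and open squares ctrl mice, 3 each. Hnrnpa2b1 was the most read gene, at 355 to 389 CPM in cold mice and 282 to 332 CPM in ctrl mice, and the groups overlap in 30 of the 42 genes.

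Hnrnpa2b1 (chr6:51460932-51469894, minus strand) encodes hnRNP A2 and B1, abundant proteins that bind purine-rich RNA and take part in splicing and RNA transport. It had 355, 379 and 389 CPM in cold mice 4, 11 and 15 and 302, 282 and 332 CPM in ctrl mice 2, 9 and 14, with no overlap. The mean was 374 ± 17.4 CPM in cold mice and 305 ± 25.4 CPM in ctrl mice (SD, n = 3 each), 1.22 times as high in the cold (log2 0.29 ± 0.08 SE, adjusted p = 0.00997). Hnrnpa1 (chr15:103240432-103246692, plus strand), the family's founding member and a general repressor of splice sites, had 86.0, 86.2 and 93.7 CPM in cold mice and 61.3, 61.7 and 73.5 CPM in ctrl mice. All 3 cold mice lay above all 3 ctrl mice, and the gene rose 1.35 times (log2 0.43 ± 0.12 SE, adjusted p = 0.00747). Both calls were lost with a skeletal muscle covariate (adjusted p = 0.0999 for Hnrnpa1 and 0.162 for Hnrnpa2b1), with DESeq2 (0.075 and 0.0744), on flow cell 2 alone (0.44 and 0.0548), and with cold mouse 15 and ctrl mouse 2 left out together (0.11 and 0.0947). The call of Hnrnpa2b1 was also lost without ctrl mouse 9 (adjusted p = 0.0747).

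The related Hnrnpa3 had 172 to 176 CPM in cold mice and 146 to 151 CPM in ctrl mice with no overlap, but did not pass the test (log2 0.23 ± 0.09 SE, adjusted p = 0.073). Hnrnpa3 shares 1488 nt at 100% identity with Gm5641, a gene with 169 reads against its own 1879, so reads could have been split between them. Hnrnpa0 had 41.1 to 55.3 CPM in cold mice and 47.0 to 61.9 CPM in ctrl mice (log2 -0.21 ± 0.14 SE, adjusted p = 0.337). Over these 4 genes, then, log2 differences ran from -0.21 to 0.43.

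Hnrnpul2 (chr19:8820010-8834143, plus strand), a relative of the nuclear scaffold protein hnRNP U, was lower in the cold. It had 17.9, 27.1 and 21.5 CPM in cold mice 4, 11 and 15 and 29.5, 33.2 and 35.4 CPM in ctrl mice 2, 9 and 14. All cold mice lay below all ctrl mice, and the gene fell by 0.57 on the log2 scale (SE 0.18, adjusted p = 0.0206). The call was lost without cold mouse 4 (adjusted p = 0.14), cold mouse 15 (0.0518) or ctrl mouse 14 (0.0959), without cold mouse 15 and ctrl mouse 2 together (0.0686), on flow cell 1 or flow cell 2 alone (0.0502 and 0.167), and with DESeq2 (0.167). Hnrnpu itself had 141 to 154 CPM in cold mice and 110 to 134 CPM in ctrl mice, with no overlap, and Hnrnpul1 had 51.6 to 59.4 CPM in cold mice and 48.0 to 56.6 CPM in ctrl mice (adjusted p = 0.108 for Hnrnpu and 0.619 for Hnrnpul1). Hnrnpu shares 593 nt at 100% identity with Cox20 on the opposite strand, a gene with 2084 reads against its own 1584.

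Luc7l2 (chr6:38551334-38609470, plus strand) is a mammalian relative of yeast Luc7, a protein of the U1 particle that selects 5′ splice sites. It had 49.8, 56.6 and 46.0 CPM in cold mice 4, 11 and 15, against 79.8, 71.4 and 67.0 CPM in ctrl mice 2, 9 and 14. The groups lay apart and the gene fell by 0.51 on the log2 scale (SE 0.12, adjusted p = 0.00274), so that it was 1.42 times as high in ctrl mice. Luc7l2 was the only one of the 42 that DESeq2 called (adjusted p = 0.0452). Its call was lost with the muscle covariate (adjusted p = 0.0641) and with cold mouse 15 and ctrl mouse 2 both left out (0.103).

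Rbm39 (chr2:156147239-156180238, minus strand) encodes an RS-domain protein that resembles U2AF and acts in 3′ splice site choice. It had 73.4, 71.6 and 76.9 CPM in cold mice 4, 11 and 15 and 95.5, 103 and 96.3 CPM in ctrl mice 2, 9 and 14. No cold mouse reached the lowest ctrl mouse, and the gene fell by 0.41 on the log2 scale (SE 0.11, adjusted p = 0.00616). Its call held in every setting run other than DESeq2 (adjusted p = 0.0701) and flow cell 2 alone (0.0634). The other 2 genes of this group did not pass the test. Rbm25, which binds exonic enhancers and the U1 particle, had 59.4, 57.6 and 61.7 CPM in cold mice and 71.7, 61.7 and 59.1 CPM in ctrl mice (adjusted p = 0.612), and Luc7l3 had 34.3 to 38.1 CPM in cold mice and 36.3 to 45.4 CPM in ctrl mice (adjusted p = 0.443).

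None of the 12 SR protein genes passed edgeR's test at the gene level, and none passed DESeq2, while 3 of the 12 (25%) had an unadjusted p under 0.05, beside 31.4% of all genes. Srsf5, the most read, had 96.6, 99.2 and 101 CPM in cold mice 4, 11 and 15 and 104, 119 and 116 CPM in ctrl mice 2, 9 and 14. Every cold mouse was below every ctrl mouse, at a log2 difference of -0.20 ± 0.10 SE (adjusted p = 0.193). Srsf3, the smallest SR protein, which also acts in mRNA export, had 95.2, 81.7 and 93.2 CPM in cold mice and 63.6, 83.2 and 71.2 CPM in ctrl mice. Cold mouse 11 lay below ctrl mouse 9, and the difference was 0.31 ± 0.12 SE (adjusted p = 0.0676). Without cold mouse 11 or without ctrl mouse 9 the same test called Srsf3 higher (adjusted p = 0.0463 and 0.0229).

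Srsf2, a protein of nuclear speckles, had 61.8, 59.6 and 63.5 CPM in cold mice 4, 11 and 15 and 71.2, 79.1 and 77.2 CPM in ctrl mice 2, 9 and 14. The groups lay apart, at -0.30 ± 0.11 SE (adjusted p = 0.0611). Srsf2 shares 460 nt with Mettl23 and 289 nt with Mfsd11 on the opposite strand, and the use of strand in counting is not given in the sources used here. The groups also lay apart, higher in the cold, for Srsf6 (45.1 to 48.3 CPM in cold mice, 34.0 to 39.9 CPM in ctrl mice, adjusted p = 0.124) and Srsf7 (22.2 to 27.4 CPM in cold mice, 12.1 to 22.0 CPM in ctrl mice, adjusted p = 0.188). Srsf10, the SR protein known as a splicing repressor when dephosphorylated, had 41.3 to 61.4 CPM in cold mice and 37.3 to 47.5 CPM in ctrl mice (adjusted p = 0.161). It was called higher once cold mouse 15, its lowest cold mouse, was left out (adjusted p = 0.0487). The remaining SR genes, Srsf1, Srsf4, Srsf9, Srsf11, Tra2a and Tra2b, had log2 differences of -0.17 to 0.22 with overlapping groups.

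**Figure D2:**
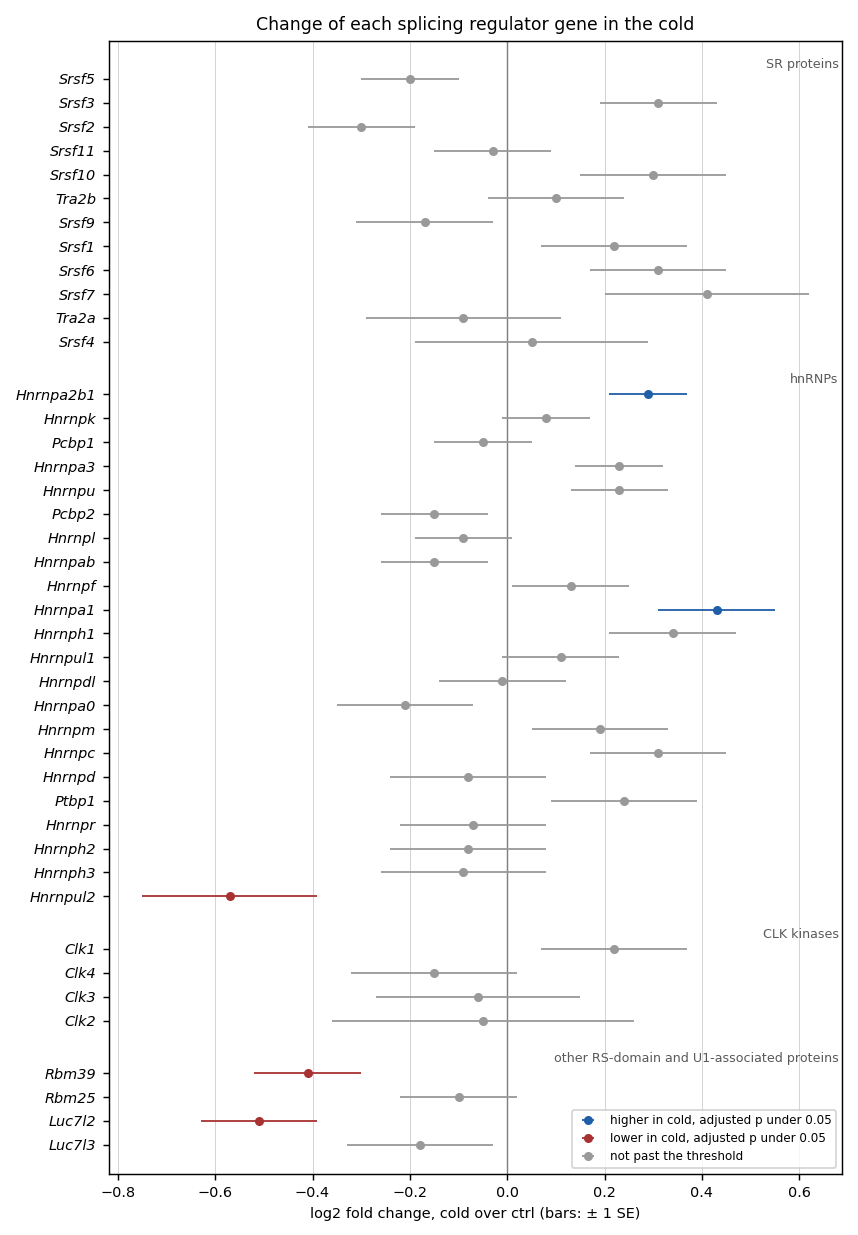
Change of each of the 42 genes, as log2 fold change of cold over ctrl with bars of 1 SE, grouped by role as in the plot of levels. The 2 called higher lie at 0.29 and 0.43, the 3 called lower at -0.41, -0.51 and -0.57, and all others between -0.30 and 0.41.

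Of the CLK kinases, none passed edgeR's test or DESeq2, and none had an unadjusted p under 0.05 in edgeR. Clk1 (chr1:58410189-58424066, minus strand) had 36.2, 43.6 and 38.4 CPM in cold mice 4, 11 and 15 and 30.1, 38.8 and 32.1 CPM in ctrl mice 2, 9 and 14. The groups overlapped, and the difference was 0.22 on the log2 scale with an approximate 95% interval of -0.07 to 0.52. Clk4 had 26.1, 28.1 and 27.9 CPM in cold mice and 37.0, 29.1 and 25.6 CPM in ctrl mice, with an interval of -0.48 to 0.18 for the difference.

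Clk3 had 21.7, 15.0 and 22.1 CPM in cold mice and 22.0, 24.0 and 15.8 CPM in ctrl mice. Clk2, the least read of the 42 with 92 reads in all, had 7.25, 8.52 and 7.57 CPM in cold mice and 11.0, 7.14 and 6.51 CPM in ctrl mice. Their groups overlapped too, with wide intervals for the difference, of -0.48 to 0.35 for Clk3 and -0.66 to 0.55 for Clk2. Clk3 shares 1121 nt with Edc3 on the opposite strand.

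The 2 abundant hnRNP genes that follow Hnrnpa2b1 kept overlapping groups. Hnrnpk, a KH-domain protein that binds C-rich RNA, had 243, 228 and 228 CPM in cold mice 4, 11 and 15 and 209, 217 and 236 CPM in ctrl mice 2, 9 and 14 (log2 0.08 ± 0.09 SE, adjusted p = 0.608). Pcbp1, an intronless poly(C)-binding relative, had 180, 166 and 142 CPM in cold mice and 177, 163 and 168 CPM in ctrl mice (log2 -0.05 ± 0.10 SE, adjusted p = 0.767). Neither value is a test that the levels were alike. Hnrnph1, which binds G-runs, had 55.1 to 81.6 CPM in cold mice and 55 to 57.7 CPM in ctrl mice (adjusted p = 0.0639), and was called higher without cold mouse 11, its lowest cold mouse (adjusted p = 0.00664). Hnrnpc, which binds uridine tracts, had 46.6 to 51.2 CPM in cold mice and 34.2 to 47.4 CPM in ctrl mice (adjusted p = 0.127), and was called higher without ctrl mouse 2 (adjusted p = 0.0441). Hnrnpab was at 85.5 to 93.7 CPM in cold mice and 94.4 to 105 CPM in ctrl mice, with no overlap (adjusted p = 0.372). The other hnRNP genes not named so far, Hnrnpd, Hnrnpdl, Hnrnpf, Hnrnph2, Hnrnph3, Hnrnpl, Hnrnpm, Hnrnpr, Pcbp2 and Ptbp1, had log2 differences of -0.15 to 0.24 with overlapping groups. Of the hnRNP genes, Hnrnpm shares 1149 nt with March2 on the same strand (996 reads against its own 564), Hnrnpab 502 nt with Phykpl and Hnrnpk 257 nt with Rmi1, both on the opposite strand.

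At the level of transcripts, the reads of the 42 genes fell on 353 annotated transcripts, of which 130 could be tested. Of these, 5 rose and 4 fell, 6.92% beside 16.9% of all 11699 transcripts tested, of which 8.68% were higher and 8.22% lower. The 9 included 7 coding and 2 NMD transcripts, and none of the 16 retained-intron transcripts tested, by edgeR's quasi-likelihood test. On flow cell 2 alone, with fewer reads, no member transcript was called. Srsf10-205, Hnrnpc-201, Ptbp1-206 and Rbm39-225 had no test result there. On flow cell 1 alone Srsf10-205 and Luc7l2-208 were still called and the other 7 were not. Without cold mouse 15 and ctrl mouse 2 together, Hnrnpa2b1-204, Hnrnpc-201, Hnrnpul2-201, Luc7l2-208, Ptbp1-206 and Rbm39-225 were not called, with adjusted p of 0.0542 to 0.461, and with no filter on low counts Hnrnpc-201, Hnrnpul2-201, Pcbp2-201 and Ptbp1-206 were not, with adjusted p of 0.0836 to 0.194.

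The 2 NMD transcripts went opposite ways. Hnrnpa2b1-207, the most read NMD transcript of the set with 1433 reads, had 139, 142 and 133 CPM in cold mice 4, 11 and 15 and 106, 95.9 and 121 CPM in ctrl mice 2, 9 and 14, with no overlap (log2 0.35 ± 0.11 SE, adjusted p = 0.0187). Its share of the gene's reads was 37.0 ± 2.50% in cold mice and 35.2 ± 1.18% in ctrl mice (SD, n = 3 each), so it rose with its gene. The call was lost without cold mouse 4 (adjusted p = 0.0658), cold mouse 11 (0.0602), ctrl mouse 2 (0.0583) or ctrl mouse 9 (0.141). Rbm39-225, whose poison exon is printed near the start, had 5.31, 5.01 and 2.91 CPM in cold mice and 10.4, 8.68 and 12.1 CPM in ctrl mice, again with no overlap (log2 -1.22 ± 0.33 SE, adjusted p = 0.00742). It made up 6.01 ± 1.92% of Rbm39 reads in cold mice and 10.6 ± 2.09% in ctrl mice, on 87 reads in all, and its call was lost without cold mouse 15 (adjusted p = 0.0537) or ctrl mouse 14 (0.054), or on flow cell 1 alone (0.059). The poison exon of Rbm39-225 is also in Rbm39-222 (36 reads), Rbm39-218 (20 reads) and Rbm39-212 (7 reads). Use of that exon over all its transcripts was not tested. Rbm39-223, another poison exon transcript of the gene, was at 12.7 ± 4.97% of Rbm39 reads in cold mice and 11.2 ± 1.87% in ctrl mice and was not called (adjusted p = 0.687).

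Coding transcripts that rose came from Srsf10, Hnrnpa2b1, Hnrnpc and Ptbp1. Srsf10-205, the longest of the well read Srsf10 transcripts at 3754 nt, had 28.5, 23.0 and 26.2 CPM in cold mice 4, 11 and 15 and 16.2, 14.8 and 15.8 CPM in ctrl mice 2, 9 and 14, with no overlap (log2 0.72 ± 0.20 SE, adjusted p = 0.00725). Its share of Srsf10 reads was 51.6 ± 10.2% in cold mice and 37.7 ± 3.77% in ctrl mice, and the call was lost without cold mouse 4 (adjusted p = 0.0549). Ptbp1-206, from the gene of the polypyrimidine tract binding protein, a repressor of exons, had 17.9, 17 and 19.2 CPM in cold mice and 13.3, 6.12 and 13.0 CPM in ctrl mice (log2 0.73 ± 0.25 SE, adjusted p = 0.0396). All cold mice lay above all ctrl mice, but ctrl mouse 9 stood far below the other 2 ctrl mice, and without it the adjusted p was 0.296. The call was lost, too, without any 1 of cold mice 4, 11 and 15 (adjusted p = 0.105, 0.0602 and 0.094).

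Hnrnpc-201 had 23.7, 15.5 and 18.6 CPM in cold mice and 12.7, 10.7 and 12.6 CPM in ctrl mice (log2 0.68 ± 0.23 SE, adjusted p = 0.0361). The groups did not overlap, yet the call was lost without cold mouse 4 (adjusted p = 0.236), cold mouse 15 (0.0513), ctrl mouse 2 (0.0614), ctrl mouse 9 (0.142) or ctrl mouse 14 (0.0853). Hnrnpa2b1-204 had 25.6, 26.6 and 43.1 CPM in cold mice and 18.5, 18.9 and 23.3 CPM in ctrl mice (log2 0.62 ± 0.20 SE, adjusted p = 0.027). Cold mouse 15 was the high one, and without it the adjusted p was 0.303; it was 0.0969 without ctrl mouse 2 and 0.114 without ctrl mouse 9.

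Coding transcripts that fell came from Luc7l2, Hnrnpul2 and Pcbp2. Luc7l2-208, its most read transcript, had 14.0, 13.5 and 11.1 CPM in cold mice 4, 11 and 15 and 26.6, 20.4 and 20.0 CPM in ctrl mice 2, 9 and 14 (log2 -0.78 ± 0.22 SE, adjusted p = 0.0085). The groups lay well apart, and of the single mice only the removal of ctrl mouse 2 lost the call (adjusted p = 0.0687). Hnrnpul2-201, which carried 97.6% of the gene's reads in cold mice and 97.7% in ctrl mice, fell by 0.57 on the log2 scale as its gene did (adjusted p = 0.0245), a call lost without cold mouse 4 (0.186), cold mouse 15 (0.055), ctrl mouse 9 (0.0685) or ctrl mouse 14 (0.101). Pcbp2-201 had 35.8, 43.1 and 47.2 CPM in cold mice and 46.9, 60.2 and 57.2 CPM in ctrl mice. Here cold mouse 15 lay just above ctrl mouse 2 (log2 -0.40 ± 0.14 SE, adjusted p = 0.0491), and the call was lost without cold mouse 4 (0.253), cold mouse 11 (0.0877), ctrl mouse 9 (0.197) or ctrl mouse 14 (0.149). Pcbp2 shares 1576 nt with Map3k12 on the opposite strand.

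Whether a gene used its transcripts in other proportions was tested apart from its total. Of 34 genes of the set with at least 2 tested transcripts, edgeR's diffSpliceDGE called none, beside 0.195% (5) of 2568 genes in all, and none of the 34 had an unadjusted p under 0.05 (lowest 0.113). By class of transcript, none of the 59 gene-class combinations in 25 of the 42 genes was called, beside 0.281% (8) of all 2844. A single one of the 59 had an unadjusted p under 0.05, and no other tool was run. It was the non-coding transcripts of Srsf10 that are neither NMD nor retained intron, at 12.6%, 13.7% and 8.45% of the gene's reads in cold mice 4, 11 and 15 and 20.0%, 21.9% and 26.5% in ctrl mice 2, 9 and 14 (adjusted p = 0.58), all cold mice below all ctrl mice. In simulated counts this test recovered 12% of class shifts of 1.5 times, 38% of those of 2 times and 84% of those of 4 times, so moderate shifts would mostly have been missed.

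The shares themselves were high. Over the 42 genes together, NMD transcripts held 12.3%, 12.8% and 11.8% of reads in cold mice 4, 11 and 15 and 11.7%, 11.3% and 11.8% in ctrl mice 2, 9 and 14. In the other nuclear protein-coding genes the same share was 2.84% to 2.88% in cold mice and 2.98% to 3.07% in ctrl mice. Retained-intron transcripts held 8.09%, 8.85% and 8.36% of the set's reads in cold mice and 9.49%, 9.44% and 9.35% in ctrl mice, against 3.81% to 3.96% in cold mice and 3.93% to 4.15% in ctrl mice for the other genes. The set's retained-intron share was thus lower in each cold mouse than in any ctrl mouse, by 0.994 points on average, while the counting interval (95%, Wilson) on 1 mouse's share was 1.36 to 1.63 points wide. Within each role this share overlapped between the groups. The mean difference was -1.72 points in SR proteins, -0.314 in hnRNPs, 2.63 in CLK kinases and -2.5 in the other splicing factors. No test was made on these sums over chosen genes, and counting intervals do not cover differences between mice. A gene can have such reads only where GENCODE annotates such transcripts. In the set, NMD transcripts are annotated in 29 of the 42 genes and retained-intron transcripts in 33. The part of annotation in the difference from other genes was not tested.

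**Figure D3:**
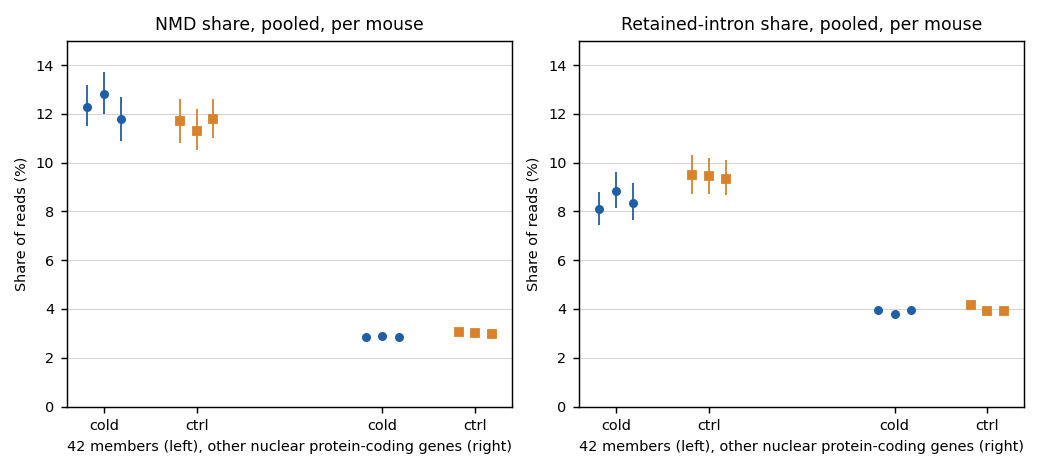
Share of reads on NMD transcripts (left) and retained-intron transcripts (right) in each mouse, summed over the 42 genes and over all other nuclear protein-coding genes, with 95% Wilson intervals for counting error. The 42 genes sit at 11.3% to 12.8% NMD and 8.09% to 9.49% retained intron, the other genes at 2.84% to 3.07% and 3.81% to 4.15%.

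Among genes with at least 100 reads, 8 of 41 in the set (19.5%) had over 20% of their reads on NMD transcripts, beside 6.26% of 6729 other protein-coding genes. Over 20% on retained-intron transcripts were found in 8 of 41 (19.5%), beside 9.08% of the others. The pooled NMD share rested on few genes. Hnrnpa2b1 and Hnrnpa1 had 1575 and 501 of the set's 4073 NMD reads, and without both the share was 6.65% in cold mice and 7.03% in ctrl mice (chosen after seeing the data), a difference of -0.383 points in place of 0.716.

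NMD transcripts were of different kinds. The kind with most reads, shared-stop transcripts, was 12 transcripts of 7 genes, with 2330 reads (57.2% of the set's NMD reads). Their stop codon is also that of a coding transcript of the gene. In the most read of them the NMD label comes from an exon junction further downstream, in the 3′ UTR. Srsf6-201 (4 reads) and Hnrnph3-204 (50 reads) are counted here too, though their stops come after only 135 and 71 codons. In 20 transcripts of 10 genes, with 1419 reads (34.8%), the stop lay in an exon of their own as printed near the start. Another 18 transcripts, with 324 reads, had a stop of their own in an exon that overlaps an exon of a coding transcript. The most read shared-stop transcripts were of hnRNP genes. Hnrnpa2b1-207 has its stop 157 nt before the last junction, Hnrnpa1-204 1801 nt, Hnrnpa1-203 90 nt and Hnrnpdl-201 126 nt. Shared-stop transcripts held 7.45%, 7.53% and 7.19% of the set's reads in cold mice 4, 11 and 15 and 6.18%, 5.87% and 6.72% in ctrl mice 2, 9 and 14, with no overlap. Stops in an own exon held 3.57% to 4.23% in cold mice and 4.14% to 4.61% in ctrl mice, which overlapped. No test was made of these sums, to which the 2 genes that rose, Hnrnpa1 and Hnrnpa2b1, gave most shared-stop reads.

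Of the genes with a shared stop, Hnrnpa1 had 59.0%, 55.2% and 52.8% of its reads on NMD transcripts in cold mice 4, 11 and 15 and 56.6%, 59.5% and 53.2% in ctrl mice 2, 9 and 14 (class test adjusted p = 1). For Hnrnpa2b1 the share was 42.3%, 40.7% and 37.4% in cold mice and 38.9%, 39.1% and 40.2% in ctrl mice (adjusted p = 1). So in both genes that rose in the cold the NMD share overlapped between the groups. Hnrnpdl stood at 28.5 ± 3.95% in cold mice and 29.8 ± 8.83% in ctrl mice (SD, n = 3 each).

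Poison exon transcripts were a large part of some SR genes. Tra2a had 54.4 ± 14.3% of its reads on NMD transcripts in cold mice and 57.0 ± 6.61% in ctrl mice, on 236 reads in all. Srsf3 had 49.7%, 55.8% and 38.8% in cold mice 4, 11 and 15 and 40.0%, 49.1% and 47.7% in ctrl mice 2, 9 and 14, all of them on Srsf3-201. In both genes the NMD transcript outnumbered the most read coding transcript, at 448 reads for Srsf3-201 and 342 for Srsf3-202, and at 132 for Tra2a-202 and 42 for Tra2a-201. Srsf7 followed at 24.3 ± 3.05% in cold mice and 27.6 ± 5.66% in ctrl mice, Srsf9 at 15.5 ± 3.52% in cold mice and 21.1 ± 4.28% in ctrl mice, and Tra2b, the paralog of Tra2a, at 10.1 ± 2.62% in cold mice and 9.27 ± 3.44% in ctrl mice. None of these shares passed the class test (adjusted p = 1 for each).

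Outside the SR family, Rbm39 had 32.7 ± 7.13% of its reads on NMD transcripts in cold mice and 35.3 ± 1.45% in ctrl mice. Rbm25 had 22.6 ± 4.91% in cold mice and 19.6 ± 3.96% in ctrl mice, Luc7l2 16.9 ± 3.24% in cold mice and 14.0 ± 1.38% in ctrl mice, and Hnrnpl 12.7 ± 1.66% in cold mice and 14.8 ± 2.23% in ctrl mice. Luc7l2 and Rbm39, both lower in the cold as genes, therefore kept NMD shares that overlapped between the groups, like the 2 that rose. Srsf1, in contrast, had 1.41% of its reads on NMD transcripts over all 6 mice, Srsf5 0.081% and Ptbp1 0.496%.

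**Figure D4:**
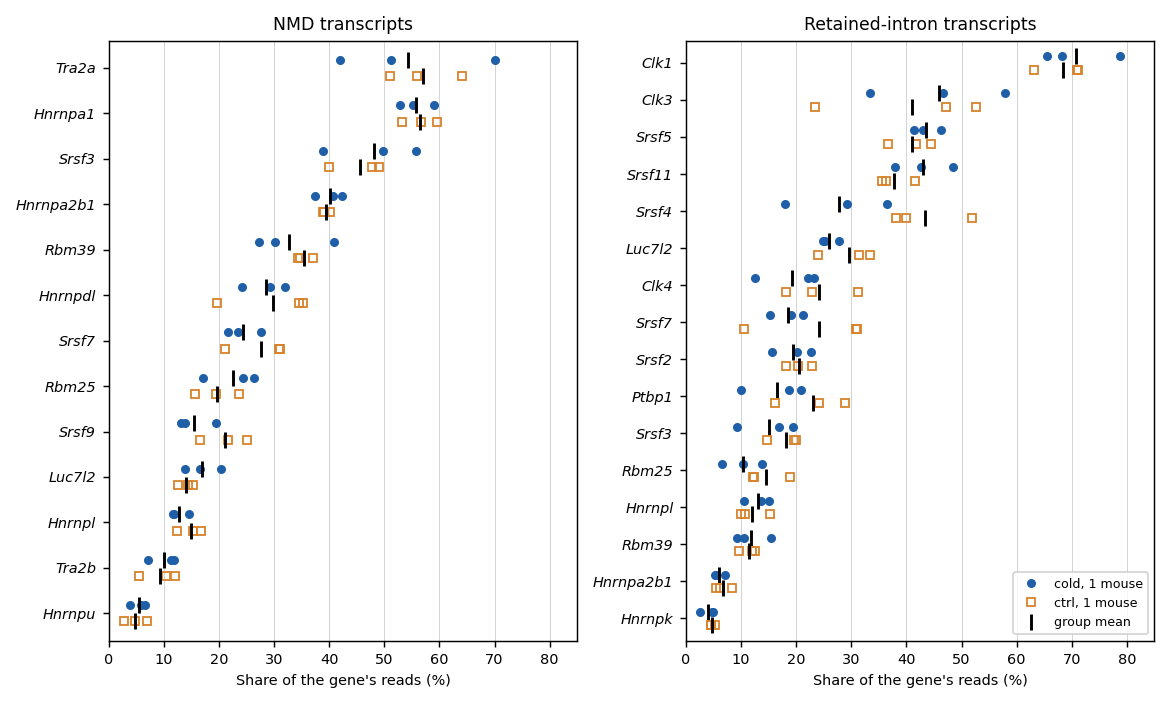
Share of each gene's reads on NMD transcripts (left, 13 genes) and on retained-intron transcripts (right, 16 genes), for the genes whose class could be tested, in percent; points are mice, cold above ctrl, and black bars are group means. Tra2a, Hnrnpa1 and Srsf3 lead on the left and Clk1 on the right, and in Srsf4 alone do the 3 cold mice lie apart from the 3 ctrl mice.

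Retained introns ran highest in the CLK kinases, at 50.8%, 45.8% and 46.1% of their pooled reads in cold mice 4, 11 and 15 and 49.7%, 39.7% and 45.3% in ctrl mice 2, 9 and 14. Clk1 had 78.7%, 65.5% and 68.2% in cold mice and 71.2%, 63.2% and 71.0% in ctrl mice (class test adjusted p = 1), and over all mice 16.2% of its reads were on coding transcripts. Its most read transcript, Clk1-212 with 165 reads, keeps introns 3 (871 nt) and 4 (387 nt) on both sides of exon 4. Clk1-204, with 67 reads, keeps those and intron 6 (87 nt). Read on from the coding frame, the first stop codon begins at base 4 of intron 3 of Clk1. Clk1-212 also has a longer last exon, of 2152 nt against 341 nt in the coding Clk1-201. A read counted on Clk1-212 may therefore not cover introns 3 and 4, and the span of single reads was not tested.

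Clk2-207, Clk3-203 and Clk4-213 keep the same pair of introns in their own genes, of 694 and 346 nt in Clk2, 2100 and 276 nt in Clk3, and 1055 and 391 nt in Clk4. The intron pair around exon 4 was therefore retained in an annotated, read transcript of each of the 4 genes. Reads numbered 25 for Clk2-207, 46 for Clk3-203 and 66 for Clk4-213. Clk3-207, with 48 reads, keeps intron 3 alone. The retained-intron share was 30.3 ± 9.58% in cold mice and 34.8 ± 13.0% in ctrl mice for Clk2, 46.0 ± 12.3% in cold mice and 41.0 ± 15.5% in ctrl mice for Clk3, and 19.3 ± 5.92% in cold mice and 24.1 ± 6.63% in ctrl mice for Clk4. All overlapped between the groups. Transcripts that skip exon 4 were read from Clk1 (Clk1-210 with 17 reads, and Clk1-211), Clk2 (Clk2-204 with 6 reads) and Clk4. Most are annotated as NMD, but Clk4-203, with 71 reads, is annotated as coding although it skips the exon. It held 20.9 ± 6.13% of Clk4 reads in cold mice and 21.5 ± 4.44% in ctrl mice.

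**Figure D5:**
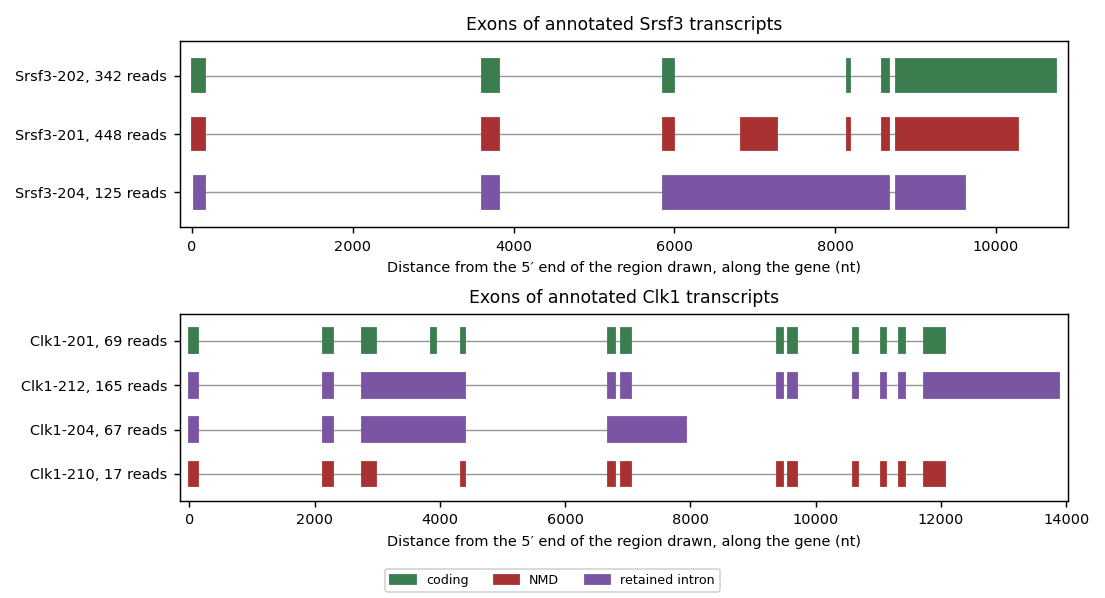
Exons of the main Srsf3 and Clk1 transcripts to scale, in nt from the 5′ end of the region drawn, with the reads of each over all 6 mice. Srsf3-201 has an extra exon of 456 nt between exons of the coding transcript, Srsf3-204 and Clk1-212 read through introns 3 and 4, and Clk1-210 lacks exon 4.

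Retained-intron reads were also common in SR genes. Srsf5 had 43.0%, 41.4% and 46.2% in cold mice 4, 11 and 15 and 36.7%, 44.4% and 41.8% in ctrl mice 2, 9 and 14 (class test adjusted p = 1). Its 3 most read retained-intron transcripts, Srsf5-212 with 329 reads, Srsf5-207 with 106 and Srsf5-209 with 87, all keep intron 5 of 1229 nt, where the reading frame meets a stop at base 7 of the intron. Srsf11 followed with 43.0 ± 5.32% in cold mice and 37.8 ± 3.23% in ctrl mice, and Srsf2 had 19.5 ± 3.58% in cold mice and 20.4 ± 2.42% in ctrl mice.

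Srsf4, an SR protein with a long RS domain, was the one gene of the 16 tested whose retained-intron share lay apart between the groups, at 36.4%, 29.2% and 17.9% in cold mice 4, 11 and 15 and 38.1%, 40.0% and 51.9% in ctrl mice 2, 9 and 14. All 3 cold values were below all 3 ctrl values, but on 60 reads in all the class test did not call it (adjusted p = 1). Of genes with too few such reads to test, Tra2a had 6.45% to 7.5% in cold mice and 10.2% to 17.6% in ctrl mice on 24 reads, and Tra2b 1.18% to 3.75% in cold mice and 3.9% to 10.8% in ctrl mice on 25 reads, both lower in the cold with no overlap. The share of all gene-class combinations whose groups lay apart was not counted, so these separations have no background to be read against. The Srsf4 reads are of Srsf4-201, and Srsf4 shares 1447 nt with Gm12992 on the opposite strand. Ptbp1 had 16.5 ± 5.74% in cold mice and 23.0 ± 6.50% in ctrl mice, Rbm25 10.3 ± 3.61% in cold mice and 14.5 ± 3.84% in ctrl mice, and Luc7l2 26.0 ± 1.65% in cold mice and 29.6 ± 4.98% in ctrl mice, all with overlapping groups and an adjusted p of 1.

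The retained-intron class is GENCODE's. Of the set's 97 such transcripts with a read, 32 span a whole intron of a coding transcript, and these held 60.1% of the class's reads. The other 65, such as Srsf4-201, Srsf11-213 and Luc7l2-203, do not.

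Factors around these genes were counted in 7 lists drawn up from their functions, to be read beside the 20.0% of all genes that edgeR called and the 10.7% that DESeq2 called. Of 12 tested kinases and phosphatases that act on SR proteins beside the CLKs, edgeR called 2 higher and 2 lower, and DESeq2 called 1 of the 12. The phosphatase catalytic subunit Ppp1ca had 135 ± 4.22 CPM in cold mice and 198 ± 10.2 CPM in ctrl mice (adjusted p = 4.4e-05), a call that held in every setting run. Its relative Ppp1cb had 266 ± 5.10 CPM in cold mice and 214 ± 12.5 CPM in ctrl mice (adjusted p = 0.00925), Ppp1cc rose 1.35 times (adjusted p = 0.0446), and the kinase Dyrk1b fell by 0.55 on the log2 scale (adjusted p = 0.0416). Of the 3 genes of the catalytic subunit of PP1, 1 thus fell and 2 rose. The calls of Ppp1cb, Ppp1cc and Dyrk1b were lost with the muscle covariate (adjusted p = 0.111, 0.29 and 0.0558) and with DESeq2 (0.0637, 0.253 and 0.25). That of Ppp1cb was also lost without ctrl mouse 2 (0.064), that of Ppp1cc without any single mouse other than ctrl mouse 9 (0.0805 to 0.204), and that of Dyrk1b without any single mouse other than ctrl mouse 2 (0.068 to 0.286).

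Of 16 NMD factors none was called by edgeR or by DESeq2, and 3 had an unadjusted p under 0.05 in edgeR. The largest difference was that of Casc3, a part of the exon junction complex, at 13.6 ± 1.62 CPM in cold mice and 8.5 ± 1.44 CPM in ctrl mice (adjusted p = 0.0583). Rnps1, another exon junction protein, had 29.9 ± 5.15 CPM in cold mice and 39.1 ± 10.2 CPM in ctrl mice (adjusted p = 0.117), and edgeR called it lower with the muscle covariate (0.0372) and without ctrl mouse 9 (0.019).

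Of 27 genes of the U1 and U2 particles and branch point recognition, Sf3b4 and Rbm17 rose 1.51 and 1.37 times and Sf3b5 and Snrpg fell by 0.42 and 0.39 on the log2 scale. Of 24 genes of the tri-snRNP and catalytic core, 1 fell, Prpf19, by 0.44. DESeq2 called none of these 5, and the covariate lost all 5 calls (adjusted p = 0.0745, 0.106, 0.194, 0.0684 and 0.119). Single mice mattered too. The calls of Sf3b4 and Prpf19 were lost without any single mouse other than ctrl mouse 2 (adjusted p = 0.0627 to 0.125 for Sf3b4 and 0.0572 to 0.219 for Prpf19). The call of Rbm17 was lost without cold mouse 15 (0.0896) or ctrl mouse 14 (0.0827), that of Sf3b5 without cold mouse 11 (0.0621), cold mouse 15 (0.0521) or ctrl mouse 2 (0.111), and that of Snrpg without cold mouse 11 (0.17) or ctrl mouse 14 (0.0842).

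Of 25 RS-domain coactivators, edgeR called 1 higher and 1 lower and DESeq2 called 1. Srrm2, a scaffold of nuclear speckles, fell by 0.52 on the log2 scale (adjusted p = 0.000308) and was called in every setting run other than flow cell 2 by itself (0.125). Zranb2 rose 1.38 times (adjusted p = 0.0109), a call lost with DESeq2 (0.125), on flow cell 2 alone (0.382) and without ctrl mouse 14 (0.0715).

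Of 28 other regulators of alternative splicing, edgeR called 6 higher and 1 lower, and DESeq2 called 2. Khdrbs3, a STAR-domain RNA-binding protein, had 66.3 ± 6.97 CPM in cold mice and 39.3 ± 1.53 CPM in ctrl mice (log2 0.75 ± 0.13 SE, adjusted p = 5.69e-05), a call that held in every setting run. Mbnl1 rose 1.33 times (adjusted p = 0.00338) but was not called from flow cell 2 by itself (0.237). Elavl1 and Sfpq rose 1.33 and 1.37 times (adjusted p = 0.0272 and 0.0356). Both calls were lost with the muscle covariate (0.253 and 0.0716) and DESeq2 (0.196 and 0.252), that of Elavl1 without cold mouse 15, ctrl mouse 2 or ctrl mouse 14 (0.0774 to 0.186), and that of Sfpq without any single mouse other than cold mouse 15 (0.052 to 0.158). Of the cold-inducible pair, Cirbp was at 12.9 ± 3.66 CPM in cold mice and 22.6 ± 2.08 CPM in ctrl mice, lower in the cold (adjusted p = 0.0109). The call of Cirbp was lost with the covariate (0.0976), with DESeq2 (0.0882) and on flow cell 1 alone (0.063). It was also lost without cold mouse 15 (0.0741) and with cold mouse 15 and ctrl mouse 2 both left out (0.095). Rbm3 was not called. With reads of flow cell 2 only, 12 of the 16 called genes named from these lists were not called (adjusted p = 0.0906 to 0.534), the exceptions being Ppp1ca, Ppp1cb, Khdrbs3 and Cirbp.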

How the data were processed

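The authors deposited whole-number counts of reads per transcript, 1 table per mouse and flow cell; the values carry no normalization. Per the submitters' processing notes, minimap2 and the build GRCm38 were used; no source used here states the annotation release, aligner version, strand use or treatment of reads that fit several transcripts, and a read that does not reach the exon that tells 2 transcripts apart may be on either. Transcripts were matched to GENCODE M21 (59371 of 59543; 0.0836% of reads unmatched and left out) and summed over 2 flow cells per mouse, then per gene or per gene and class. Tests used edgeR 4.0.16 in R 4.3.3 (TMM, filterByExpr, glmQLFit with robust estimation, glmQLFTest, diffSpliceDGE with Simes p per gene), all 6 mice, no covariate, Benjamini-Hochberg over all features, called at 0.05; every adjusted p is from these unless DESeq2 (1.42.0) is named. Separate animals are the replicates. Recovery was tested on simulated data. Shared sequence (200 nt at 95% identity or more) was found with minimap2 2.31. Figures used matplotlib 3.10.9. Values in every mouse are given for called genes, the CLK genes and the 3 most read genes of each role; of other lists, up to 4 called genes by fold, or 2 if none. Further members are named so that each is accounted for. Members and lists were chosen with earlier results of these data known. Alternatives were RLE size factors, DESeq2, no filter, each flow cell alone, no mitochondrial genes, a length offset, a skeletal muscle covariate, and mice left out.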

Additional observations from a re-analysis of the deposited data

How the results depend on the processing

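No paired analysis was possible because the mouse numbers of the cold and ctrl groups have none in common. Over the set, genes called higher numbered 0 with DESeq2, with the muscle covariate and without cold mouse 15 and ctrl mouse 2 together, 1 on flow cell 2, and 2 to 4 with 1 mouse left out; genes called lower numbered 1 with DESeq2, on flow cell 2 and without those 2 mice, and 2 to 3 with 1 mouse left out. On flow cell 2 the called genes were Luc7l2 and Ptbp1. Member transcripts called higher numbered 3 with no filter, on flow cell 1 and without the 2 mice, 0 on flow cell 2, and 1 to 6 with 1 mouse left out; those called lower numbered 2 with no filter, 1 on flow cell 1, 0 on flow cell 2, 2 without the 2 mice, and 1 to 4. No member was called for transcript or class usage in any setting run. Over all genes, the calls higher and lower were 492 and 439 with DESeq2, 457 and 432 on flow cell 2, and 700 to 772 and 676 to 721 with 1 mouse left out; the lower ones were 558 with the covariate and 559 without the 2 mice. All transcripts gave 477 higher and 456 lower on flow cell 2, usage 3 genes there, and class usage 4 there and 5 to 9 with 1 mouse left out. The difference in pooled NMD share, 0.716 points, was 0.175 on flow cell 2, -0.403 as a mean of shares per gene, -0.383 without Hnrnpa1 and Hnrnpa2b1, and 0.454 to 0.982 with 1 mouse left out. That in retained-intron share, -0.994 points, was -1.58 on flow cell 2 and -1.20 to -0.823 with 1 mouse left out. The cause of these shifts was not tested. Of 724 values of single genes and transcripts under an alternative, 648 stayed on the same side of the threshold, 70 lost a call, 6 gained one and none reversed; of the 629 of these that were of genes, 36 changed sign, in each case without a call. Depth limits Clk2 most, and the shares of genes with under 100 NMD or retained-intron reads.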
